A study of Mus musculus with 6 samples.

Results

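The tricarboxylic acid (TCA) cycle and its refilling by anaplerosis were followed through 9 enzyme genes, namely Cs, Idh1, Idh2, Idh3a, Ogdh, Sucla2, Fh1, Mdh2 and Pcx. They were taken by symbol from the 40303 gene models of the deposited table, where each symbol had 1 row, and all 9 passed the filter on low values. The samples were 6 CT26 tumours, each grown under the skin of its own BALB/c mouse of wild-type genotype. CT26 is a mouse colon carcinoma line that originated in the same strain. Of these mice, 3 had received PEGylated glutaminase into the peritoneum at 50 IU per kg, an enzyme that degrades glutamine in the circulation, and 3 had received its vehicle, phosphate-buffered saline with 10% glycerol. Both groups were dosed every 3 days for 2 injections, and each tumour gave 1 messenger RNA library. All tumours derive from that same cell line, and the sources used here state neither the age nor the sex of the mice. In the GENCODE M21 annotation Idh1 and Fh1 lie on chromosome 1, Mdh2 on 5, Idh2 on 7, Idh3a on 9, Cs on 10, Ogdh on 11, Sucla2 on 14 and Pcx on 19.

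The TCA cycle runs in the mitochondrial matrix, where it oxidises acetyl groups to carbon dioxide and feeds electrons to the respiratory chain. Its intermediates are also drawn off for lipid, amino acid and nucleotide synthesis, so they must be replaced. In many cultured tumour cells glutamine is a major source of this replacement, entering as alpha-ketoglutarate after conversion to glutamate, while pyruvate carboxylase offers another route by making oxaloacetate from pyruvate. The comparison asks whether transcripts of these enzymes differ in tumours of mice whose glutamine supply was attacked.

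PEG-glutaminase libraries held 16455052 to 16791267 reads, as recovered from the values, and vehicle libraries 17380129 to 18051480. Vim was abundant, at 87851 to 108398 normalized counts in PEG-glutaminase tumours and 114254 to 139819 in vehicle tumours. The epithelial marker Epcam stood at only 2.07 to 7.92 in PEG-glutaminase tumours and 6.87 to 58.0 in vehicle tumours, and Krt8 at 9.90 to 27.8 in PEG-glutaminase tumours and 6.87 to 9.66 in vehicle tumours, so these epithelial markers of a carcinoma were low. Krt18 was detected throughout, at 139.9 to 201 normalized counts in PEG-glutaminase tumours and 131 to 263 in vehicle tumours. Vehicle 1 stood apart in skin genes, with 5958 summed normalized counts over 4 keratinocyte markers. Those markers summed to 60.4 to 65.3 in the PEG-glutaminase tumours and to 68.7 and 179 in the other vehicle tumours. In bulk tissue, fewer cells of a type and less RNA per cell cannot be told apart.

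None of the 9 enzyme transcripts passed the test in either direction. Limma on log2(normalized counts + 1), adjusted over all genes, called 0 of 9, where it called 0.0369% of all 13557 tested genes, 0.00738% higher and 0.0295% lower. At an unadjusted p under 0.05 there were 2 of 9, a share of 22.2%, where the share of all tested genes was 18.4%. DESeq2 called 0 of 9 (2 unadjusted) against 3.9% of the genes it adjusted, and edgeR called 0 of 9 (2 unadjusted) and 0% of all genes (2554 unadjusted). The median log2 difference of the enzymes was 0.11 in PEG-glutaminase tumours relative to vehicle tumours, where the median over all tested genes was -0.00005. 7 of the 9 differences were positive, where 50% of all tested genes had a positive difference. The limma adjusted p ranged from 0.231 for Ogdh to 0.987 for Idh1.

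**Figure D1:**
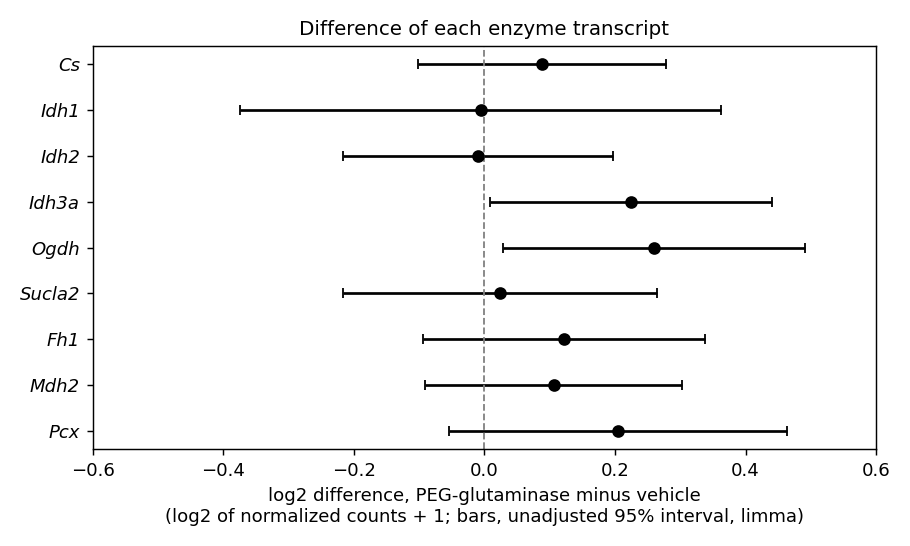
Log2 difference between PEG-glutaminase and vehicle tumours for each enzyme transcript (points), on the scale of log2(normalized counts + 1), with unadjusted 95% limma intervals (bars, 3 tumours per group). The intervals of Idh3a and Ogdh lie just above 0 and the other 7 cross it, and none passed after adjustment over all genes.

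The precision of these differences is set by 3 tumours per group. The unadjusted 95% intervals of the 9 enzymes lay between -0.37, the lower bound of Idh1, and 0.49, the upper bound of Ogdh, so the largest rise they allow is 1.41-fold and the largest fall leaves 0.771 of the vehicle level. The median standard error of the 9 was 0.097, and that of all tested genes was 0.12. These bounds concern messenger RNA only and say nothing of enzyme activity or flux.

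Acetyl groups enter the cycle through citrate synthase, which joins them to oxaloacetate. Its transcript Cs had 5734, 6256 and 5282 normalized counts in PEG-glutaminase tumours 1 to 3, against 5323, 5537 and 5351 in vehicle tumours 1 to 3. The vehicle values were close together and lay within the wider range of the treated ones. Their log2 difference was 0.088 ± 0.085 (SE; limma adjusted p = 0.597), 0.027 without PEG-glutaminase 2 and 0.15 without PEG-glutaminase 3.

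Pcx encodes pyruvate carboxylase, the biotin enzyme that makes oxaloacetate from pyruvate and so refills the cycle without glutamine. It had 444, 370.2 and 482 normalized counts in PEG-glutaminase tumours 1 to 3, against 379.6, 364 and 375 in vehicle tumours 1 to 3. PEG-glutaminase 1 and 3 stood above every vehicle tumour, while PEG-glutaminase 2 fell within the vehicle range. Vehicle tumours varied by an SD of 8.02 around 373, and PEG-glutaminase tumours by an SD of 57.1 around 432 (n = 3 each). On the log2 scale the groups differed by 0.21 ± 0.12 (SE; limma adjusted p = 0.358). This difference was 0.31 when PEG-glutaminase 2 was left out and 0.12 when PEG-glutaminase 3 was.

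Isocitrate is converted to alpha-ketoglutarate by 3 separate enzymes. Idh3a encodes the catalytic alpha subunit of the mitochondrial NAD+-dependent enzyme of the cycle itself. It had 1976, 2371 and 1898 normalized counts in PEG-glutaminase tumours 1 to 3, against 1663, 1814 and 1845 in vehicle tumours 1 to 3. The groups did not overlap, as in 25.8% of all tested genes (13.1% higher, 12.7% lower), and PEG-glutaminase 2 was the highest. Its log2 difference was 0.23 ± 0.097 (SE; unadjusted p = 0.0427 and adjusted p = 0.253 by limma), and 0.13 without PEG-glutaminase 2.

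Idh2 encodes the mitochondrial NADP+-dependent enzyme, which can also run in reverse to carboxylate alpha-ketoglutarate. It had 2804, 3150.1 and 2688 normalized counts in PEG-glutaminase tumours 1 to 3, against 2623, 3087 and 2991 in vehicle tumours 1 to 3. The ranges overlapped almost fully, with a log2 difference of -0.0097 ± 0.093 (SE; limma adjusted p = 0.965) and an interval from -0.22 to 0.20.

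Idh1 encodes the NADP+-dependent enzyme of the cytosol and peroxisomes, a source of NADPH. It had 937, 1214 and 937 normalized counts in PEG-glutaminase tumours 1 to 3, against 996, 852 and 1271 in vehicle tumours 1 to 3. This transcript varied most within the groups, with a coefficient of variation of 15.5% in PEG-glutaminase tumours and 20.5% in vehicle tumours. Its log2 difference was -0.0059 ± 0.16 (SE; limma adjusted p = 0.987), and the interval, from -0.37 to 0.36, was the widest of the 9. The high tumours were vehicle 3 and PEG-glutaminase 2. The same libraries had the highest sums over 6 fibroblast markers, 72708 normalized counts in PEG-glutaminase 2 and 69177 in vehicle 3. The other fibroblast sums were 57458 and 57461 in PEG-glutaminase tumours, and 60389.9 and 50809 in vehicle tumours. Most of each sum was collagen, and Dcn, another marker of the list, was instead lowest in PEG-glutaminase 2, at 2658 normalized counts, and in vehicle 3 among the vehicle tumours, at 5866. The link was not particular to fibroblast markers. PEG-glutaminase 2 and vehicle 3 also had the highest skeletal muscle sums, 1895 and 1212 normalized counts, and the highest adipocyte sums, 776 and 710.3. The part of any of these cells in the Idh1 values was not tested.

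Ogdh encodes the first subunit of the alpha-ketoglutarate dehydrogenase complex, the step at which glutamine-derived carbon is oxidised in the cycle. It had the smallest unadjusted p of the 9. Ogdh had 2609, 2948 and 2567 normalized counts in PEG-glutaminase tumours 1 to 3, against 2333, 1961 and 2514 in vehicle tumours 1 to 3. Each PEG-glutaminase tumour stood above each vehicle tumour, though PEG-glutaminase 3 exceeded vehicle 3 only narrowly. Groups without overlap were found in 2 of the 9 enzymes, both higher, and in 25.8% of all tested genes (13.1% higher, 12.7% lower). Ogdh differed by 0.26 ± 0.10 on the log2 scale (SE; unadjusted p = 0.0311 and adjusted p = 0.231 by limma), or 1.20-fold, and it was 0.16 without vehicle 2. The related gene Ogdhl was also present, at a mean of 593 normalized counts, and the sources used here do not state how reads shared by both genes were assigned. Between the groups, 3 marker sums separated in the same direction as Idh3a and Ogdh. Erythroid markers summed to 918 to 1278 normalized counts in PEG-glutaminase tumours and 468 to 575 in vehicle tumours, nearly all of it Hbb-bs and Hbb-bt. Endothelial markers summed to 2752 to 3697 in PEG-glutaminase tumours and 2628 to 2733 in vehicle tumours, a narrow gap. Of those genes Cdh5 and Kdr separated, while Pecam1 and Tie1 overlapped. Proliferation markers summed to 18987 to 22470.2 in PEG-glutaminase tumours and 14896 to 18409 in vehicle tumours, but of the 4 genes only Top2a separated, while Mki67, Ccnb1 and Cdk1 overlapped. The T and NK cell, keratinocyte and epithelial line sums, the last nearly all Vim, separated in the opposite direction. Within these lists Cd4, Ncr1, Krt14, Krt5, Epcam, Krt18 and Cdh17 overlapped between groups, and Krt8 was higher in each PEG-glutaminase tumour. The keratinocyte sums parted only narrowly, at up to 65.3 in PEG-glutaminase tumours and from 68.7 in vehicle tumours. The part of all these cells in the enzyme values was not tested.

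Sucla2 encodes the beta subunit that makes succinyl-CoA ligase form ATP. It had 983, 1105 and 846 normalized counts in PEG-glutaminase tumours 1 to 3, against 886, 1006 and 980.0 in vehicle tumours 1 to 3. Both the highest and the lowest tumour belonged to the PEG-glutaminase group. The groups differed by 0.024 ± 0.11 on the log2 scale (SE; limma adjusted p = 0.924).

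Fh1 encodes fumarate hydratase, which turns fumarate into malate. It had 1734, 1959 and 1809.6 normalized counts in PEG-glutaminase tumours 1 to 3, against 1475, 1790.3 and 1807 in vehicle tumours 1 to 3. Vehicle 1 was the low tumour, and without it the log2 difference was 0.026 in place of 0.12 ± 0.097 (SE; limma adjusted p = 0.514).

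Mdh2 encodes the mitochondrial malate dehydrogenase that closes the cycle by regenerating oxaloacetate. It had 9252, 9564 and 8546 normalized counts in PEG-glutaminase tumours 1 to 3, against 7897, 8951 and 8583 in vehicle tumours 1 to 3. The groups overlapped, and vehicle 1 was again the lowest. Mdh2 differed by 0.11 ± 0.088 on the log2 scale (SE; limma adjusted p = 0.533), and by 0.056 without vehicle 1.

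**Figure D2:**
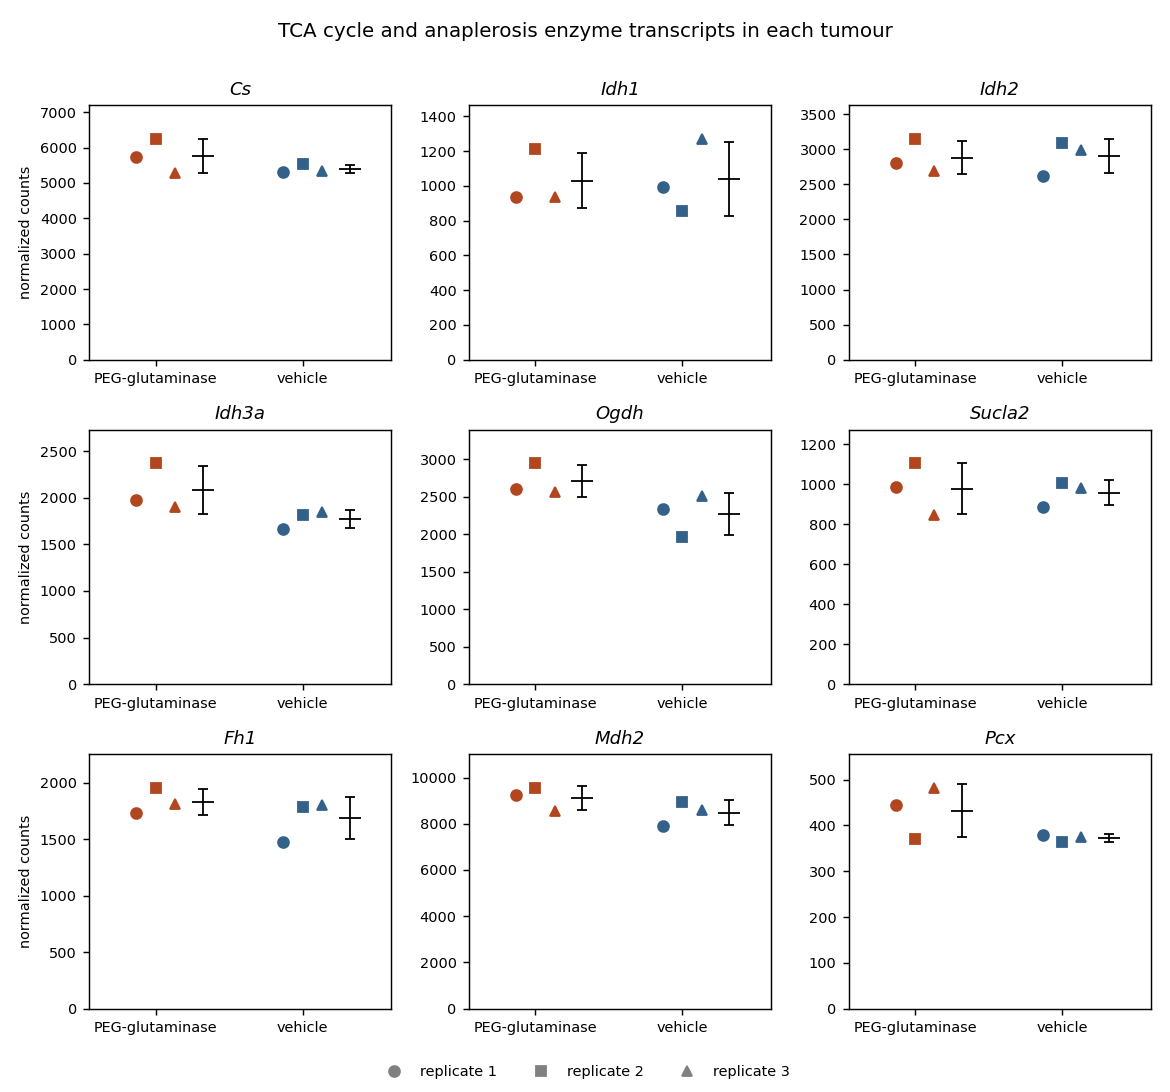
Normalized counts of each enzyme transcript in every tumour, PEG-glutaminase on the left and vehicle on the right, with the marker shape giving the replicate number and the black bars the mean ± SD of 3 tumours. Idh3a and Ogdh show no overlap between groups, as do 25.8% of all tested genes, and PEG-glutaminase 2 is the highest tumour for 7 of the 9 genes.

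Scaled to transcript length, the enzymes spanned a wide range of levels, and their group means kept 1 order in both groups. Single tumours did not all keep that order. Mdh2 led with 6264 ± 358 normalized counts per kb in PEG-glutaminase tumours and 5822 ± 367 in vehicle tumours (SD, n = 3 each). Cs followed at 1968 ± 167 in PEG-glutaminase tumours and 1847 ± 39.6 in vehicle tumours. Idh2 came next at 1651 ± 138 in PEG-glutaminase tumours and 1662 ± 140.3 in vehicle tumours. The ranges of Cs and Idh2 overlapped in PEG-glutaminase tumours and not in vehicle tumours.

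Below them came Idh3a, Fh1 and Ogdh, at length-scaled levels of 807, 696 and 656 in PEG-glutaminase tumours and 688, 641 and 549.9 in vehicle tumours. Neighbours among these 3 overlapped in their ranges in both groups. Ogdh and Idh1 overlapped in vehicle tumours and not in PEG-glutaminase tumours. Idh1 and Sucla2 could not be ranked, since Idh1 was the higher in 4 of 6 libraries. Pcx was by far the lowest, at 104 ± 13.8 normalized counts per kb in PEG-glutaminase tumours and 89.9 ± 1.93 in vehicle tumours. Lengths are those of the longest GENCODE M21 transcript, from another assembly than the BALB/cJ gene models, so the order depends on them.

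**Figure D3:**
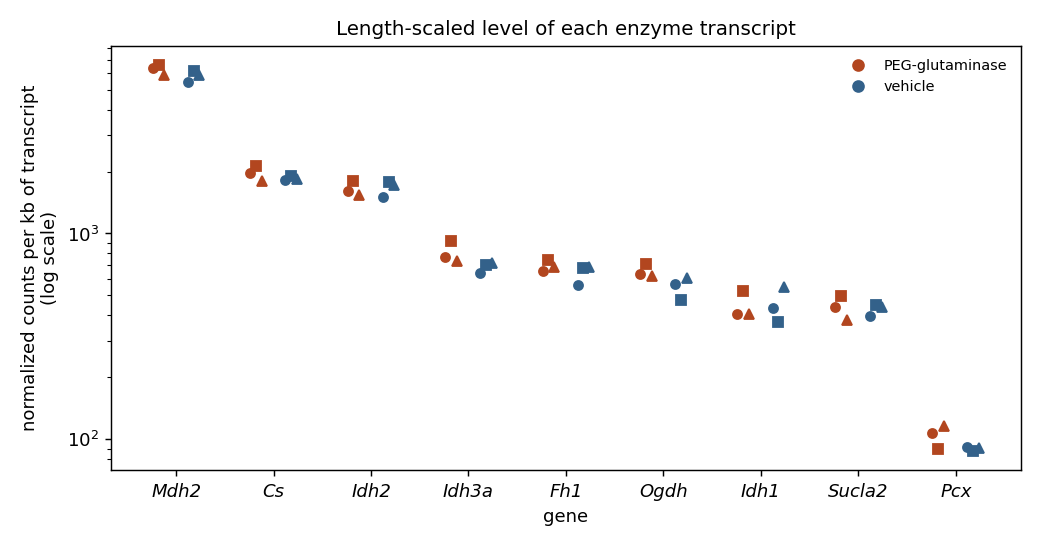
Normalized counts per kb of transcript for each enzyme gene on a log axis, with PEG-glutaminase tumours in red to the left of vehicle tumours in blue, and 1 point per tumour. Mdh2 is the highest and Pcx the lowest in every tumour.

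Libraries of the same group differed in their level of the enzymes as a set. PEG-glutaminase 2 was the highest library for 7 of 9 enzymes, where it was the highest for 23.9% of all tested genes. Averaged over the 9 enzymes, the log2 deviation from the 6-library mean was 0.026, 0.16 and -0.020 in PEG-glutaminase 1 to 3, against -0.13, -0.067 and 0.024 in vehicle 1 to 3. PEG-glutaminase 3 therefore lay below vehicle 3. Vehicle 1 was the lowest library for 4 of the enzymes, Idh2, Idh3a, Fh1 and Mdh2.

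PEG-glutaminase 2 also differed in its tissue markers. Its 12 skeletal muscle markers summed to 1895 normalized counts, with 210.3 and 139.9 in PEG-glutaminase 1 and 3, against 302 to 1212 in the vehicle tumours. Acta1 alone gave 816 of the 1895. Tnni2 did not follow, at 86.1 in PEG-glutaminase 2 and 87.4 in PEG-glutaminase 3. Actn3 was highest in vehicle 3, and Tnnc2 was at 0 in every PEG-glutaminase tumour. In PEG-glutaminase 2 the 6 T and NK cell markers summed to 165, with 502 and 743 in PEG-glutaminase 1 and 3, against 874 to 1196 in the vehicle tumours. Not every marker of that list followed its sum. Cd4 was highest of the PEG-glutaminase tumours in PEG-glutaminase 2, at 49.5 normalized counts, and Ncr1 stood at 56.4 there against 48.7 in PEG-glutaminase 1. The 4 proliferation markers of PEG-glutaminase 2 summed to 22470.2, with 18987 and 19988 in PEG-glutaminase 1 and 3, against 14896 to 18409 in the vehicle tumours. Adipocyte markers, 7 in number, ran from 495 to 776 in PEG-glutaminase tumours and from 586 to 710.3 in vehicle tumours, nearly all of it Fabp4. Adipoq stayed at or below 5.18 in PEG-glutaminase tumours and 7.85 in vehicle tumours, and the brown fat marker Ucp1 was at 0 in all 6. The part of these tissue markers in the enzyme values was not tested. Without PEG-glutaminase 2 the median of the 9 log2 differences was 0.071, and without vehicle 1 it was 0.056.

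**Figure D4:**
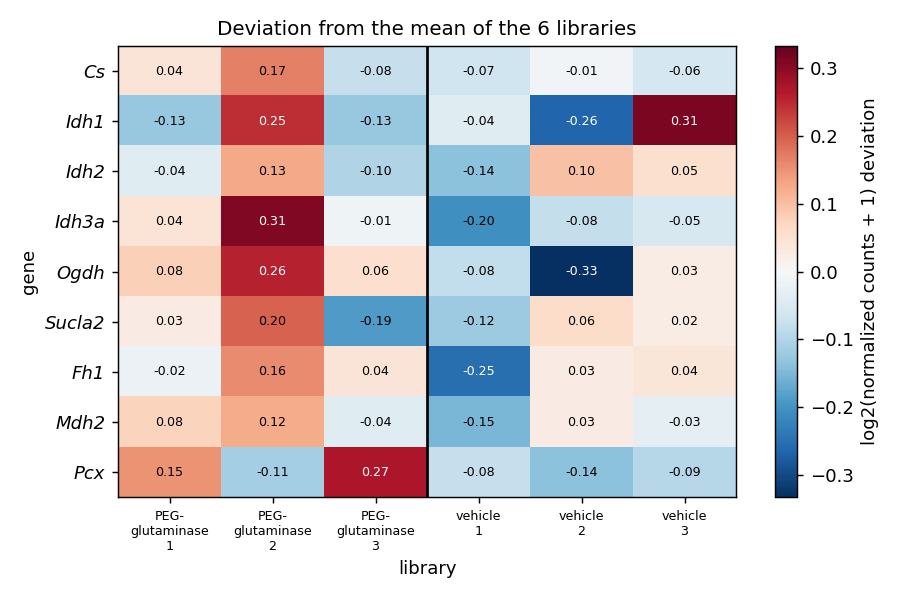
Deviation of each enzyme transcript from its own mean over the 6 libraries, in log2(normalized counts + 1), with PEG-glutaminase libraries left of the black line and vehicle libraries right of it. The column of PEG-glutaminase 2 is positive for every gene except Pcx, and that of vehicle 1 is negative for all 9.

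Ratios of transcripts within a library do not depend on library scaling. The log2 ratio of Idh3a to Idh2 averaged -0.47 ± 0.054 in PEG-glutaminase tumours and -0.71 ± 0.056 in vehicle tumours (SD, n = 3 each). The groups did not overlap, and the difference of 0.23 had p = 0.1 in a two-sided exact permutation test, the smallest that 3 against 3 tumours can give (adjusted p = 0.5 over 5 ratios, permutation test). The ratio concerns the Idh3a transcript only, and the partner subunit genes of the same enzyme, given further on, did not share its direction.

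The other 4 ratios overlapped between groups. Pcx to Pdha1, which sets the carboxylation of pyruvate against its oxidation, averaged -2.68 ± 0.23 in PEG-glutaminase tumours and -2.88 ± 0.069 in vehicle tumours (exact permutation p = 0.3). Pcx to Cs averaged -3.74 ± 0.32 in PEG-glutaminase tumours and -3.85 ± 0.062 in vehicle tumours (exact permutation p = 0.7). Cytosolic Idh1 to mitochondrial Idh2 averaged -1.49 ± 0.11 in PEG-glutaminase tumours and -1.50 ± 0.32 in vehicle tumours (exact permutation p = 1). Sucla2 to Suclg2, the ATP-forming against the GTP-forming beta subunit, averaged -0.17 ± 0.21 in PEG-glutaminase tumours and -0.019 ± 0.20 in vehicle tumours (exact permutation p = 0.5). Adjusted over the 5 ratios, these permutation p-values ran from 0.75 to 1.

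The other nuclear subunits of the cycle gave no call either. For this and the following lists, the shares over all tested genes were 0.0369% called by limma (18.4% unadjusted) and 0% by edgeR. DESeq2 called 3.9% of the genes it adjusted. Limma called 0 of 11 (0 unadjusted), DESeq2 0 of 11 (0 unadjusted) and edgeR 0 of 11 (0 unadjusted), with 5 higher, 6 lower and a median log2 difference of -0.021, which ran from -0.055 without vehicle 1 to 0.034 without vehicle 2. Sdha, the catalytic subunit of succinate dehydrogenase, stood at -0.041 ± 0.071 (SE). Sdhc, a membrane anchor of that complex, stood at -0.082 ± 0.086, and Suclg2 at 0.18 ± 0.10. Sdhc was -0.16 without vehicle 1 and -0.024 without vehicle 3, and Suclg2 was 0.27 without vehicle 2 and 0.075 without vehicle 3. Idh3b, a partner subunit of Idh3a in the same enzyme, stood at -0.17 ± 0.079 (limma adjusted p = 0.281), with 2639, 2593 and 2601 normalized counts in PEG-glutaminase tumours 1 to 3 and 2789, 3187 and 2857 in vehicle tumours 1 to 3. Its groups did not overlap, as in 25.8% of all tested genes, and the direction was opposite to that of Idh3a.

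Pyruvate entry genes, which carry pyruvate into the matrix and govern pyruvate dehydrogenase, had a median log2 difference of -0.031 over 12 tested of 13 genes, which was -0.078 without vehicle 1 and 0.025 without vehicle 2. Limma called 0 of 12 (0 unadjusted) and edgeR 0 of 12 (1 unadjusted), while DESeq2 called 1 of 12, Pdk1, lower (1 unadjusted). Pdk1 encodes a kinase that switches pyruvate dehydrogenase off and is a known target of hypoxia signalling. It had 1526, 882 and 1547 normalized counts in PEG-glutaminase tumours 1 to 3, against 1860.3, 2574 and 1705 in vehicle tumours 1 to 3. The log2 difference was -0.66 ± 0.28 (SE; adjusted p = 0.287 by limma, 0.0439 by DESeq2), and -0.39 without PEG-glutaminase 2. Pdha1, the catalytic alpha subunit of the dehydrogenase itself, stood at -0.0020 ± 0.073, and turned to 0.0026 with TMM scaling.

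Among 20 other genes of anaplerosis and cataplerosis, 19 were tested and their median log2 difference was 0.063, or 0.035 without vehicle 1. Limma called 0 of 19 (2 unadjusted) and edgeR 0 of 19 (3 unadjusted), while DESeq2 called 1 of 19, Gls2, higher (2 unadjusted). Gls2 encodes the liver-type glutaminase, which makes glutamate from glutamine inside mitochondria. It had 128, 162 and 141 normalized counts in PEG-glutaminase tumours 1 to 3, against 86.0, 100.1 and 79.5 in vehicle tumours 1 to 3. The groups did not overlap, as in 25.8% of all tested genes. The log2 difference of Gls2 was 0.70 ± 0.17 (SE; adjusted p = 0.122 by limma, 0.0489 by DESeq2).

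Glud1, glutamate dehydrogenase, had a log2 difference of -0.012 ± 0.085 (SE). The mitochondrial transaminases that also convert glutamate to alpha-ketoglutarate stood at 0.089 ± 0.077 for Got2 and 0.17 ± 0.10 for Gpt2, the second of which was 0.083 without PEG-glutaminase 1 and 0.27 without PEG-glutaminase 2. The malic enzymes stood at 0.025 ± 0.078 for cytosolic Me1 and 0.15 ± 0.095 for mitochondrial Me2, which was 0.066 without vehicle 1. Among enzymes that draw carbon off, Acly, which cleaves citrate, stood at 0.063 ± 0.088 and Pck2, the mitochondrial phosphoenolpyruvate carboxykinase, at 0.064 ± 0.10. Acly was 0.0034 without PEG-glutaminase 3 and 0.12 without PEG-glutaminase 2. Mdh1, the cytosolic malate dehydrogenase, stood at -0.12 ± 0.078, or -0.18 without vehicle 1, and none of these 8 passed in limma or DESeq2.

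Mitochondrial carriers had the highest median of the linked lists, 0.13 over 7 tested of 8 genes. Limma called 0 of 7 (2 unadjusted), edgeR 0 of 7 (2 unadjusted) and DESeq2 0 of 7 (2 unadjusted). Slc25a13, an aspartate and glutamate exchanger, stood at 0.31 ± 0.11 (SE; limma adjusted p = 0.185), and Slc25a22, a glutamate carrier, at 0.31 ± 0.11 (limma adjusted p = 0.207). Slc25a10, which carries dicarboxylates, stood at 0.22 ± 0.11 (limma adjusted p = 0.312), or 0.11 without PEG-glutaminase 2. The carrier median was 0.035 without vehicle 1.

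The 4 succinate dehydrogenase assembly factors had a median of -0.057, which was -0.12 without PEG-glutaminase 2 and -0.014 without PEG-glutaminase 3, with 0 called by limma, edgeR or DESeq2 and 0 unadjusted in each. Sdhaf1 stood at -0.061 ± 0.21, Sdhaf2 at -0.054 ± 0.095 and Sdhaf4 at -0.23 ± 0.15, or -0.15 without PEG-glutaminase 2. Genes of mitochondrial content and biogenesis had a median of 0.0076 over 12 tested of 13 genes, which was -0.031 without vehicle 1 and 0.071 without PEG-glutaminase 3. Limma called 0 of 12 (4 unadjusted) and edgeR 0 of 12 (4 unadjusted), while DESeq2 called 1 of 12, Hspd1, higher (3 unadjusted). Over all genes the shares were 18.4% unadjusted by limma and 3.9% called by DESeq2. Hspd1 encodes the chaperonin that folds imported matrix proteins. It had 9647, 10315 and 8241 normalized counts in PEG-glutaminase tumours 1 to 3, against 7214, 7179 and 7471 in vehicle tumours 1 to 3. The groups did not overlap, as in 25.8% of all tested genes. The log2 difference was 0.36 ± 0.097 (SE; adjusted p = 0.135 by limma, 0.0183 by DESeq2).

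**Figure D5:**
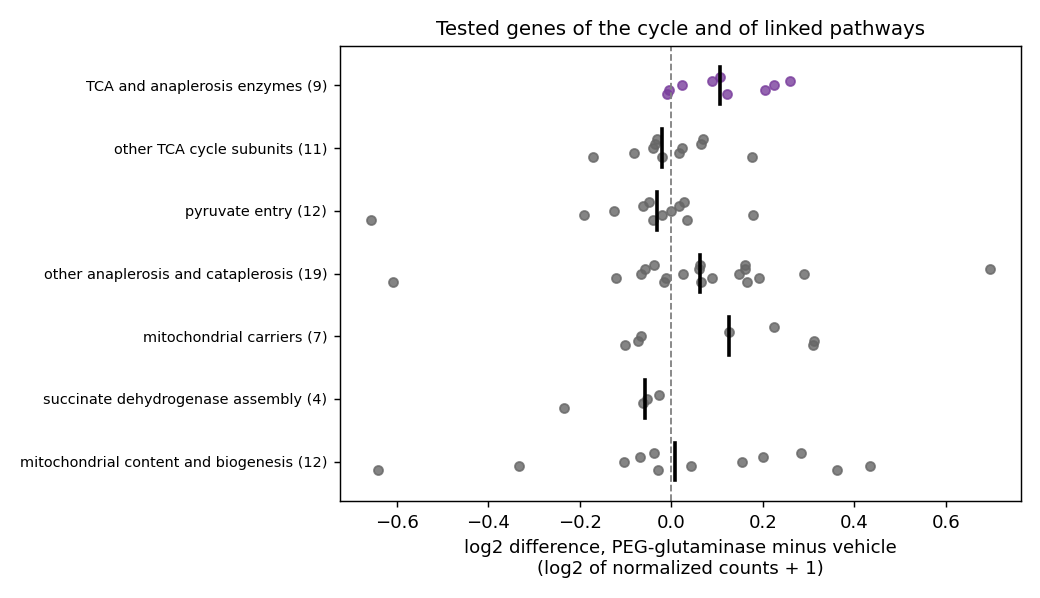
Log2 differences between PEG-glutaminase and vehicle tumours of the tested genes in each list, 1 point per gene, with the list median as a black bar and the number of tested genes in brackets. The enzymes of the cycle and anaplerosis have a median of 0.11, and the outlying genes of the other lists include Gls2 at 0.70 and Pdk1 at -0.66.

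In the authors' deposited table the 9 enzymes did not pass an adjusted p of 0.05 either. The authors' deposited table lists Ogdh nearest to it, at a log2 fold change of 0.27 ± 0.096 (SE) with an adjusted p-value of 0.088, then Idh3a at 0.21 ± 0.087 with 0.158 and Pcx at 0.28 ± 0.12 with 0.159. The mean signal in the authors' deposited table differs by over 1% from the mean of the 6 libraries in 65.6% of tested genes, so which libraries that comparison used is not known. The genes whose library pattern was most like that of Ogdh, by the root mean square difference of log2 deviations over 6 libraries, were Man2a1 at 0.023, Lrrc8b at 0.024 and Elmod2 at 0.036. They were the nearest of all tested genes outside the 9 enzymes, and so wide a search over 6 values can give close matches by itself. Shared regulation was not tested.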

How the data were processed

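RNA sequencing of 6 tumours was analysed, 3 per group, grouped and numbered from the sample titles. The deposited table gives a signal per BALB/cJ gene model, a count of reads scaled by 1 factor per library, per the file headers and values. FastQC, STAR, featureCounts, DESeq2 and DESeq are named, per the submitters' processing notes; versions, settings, strand and build were not given in the sources used here. The authors also deposited their own comparison as log2 fold changes, Wald scores and p-values. Of 40396 rows, 93 repeat a gene model and were dropped; 2902 models without a symbol held 0.13% to 0.214% of reads. All non-zero values were whole multiples of 1 read's worth within 0.01, which gave whole reads for edgeR and DESeq2; for PEG-glutaminase 2, whose step is near 1, this rests on the values alone.

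Limma 3.58.1 in R 4.3.3 was run on log2(value + 1) of genes averaging 10 normalized counts or more, with trend and robust options and two-sided p-values, Benjamini-Hochberg adjusted over all tested genes, threshold 0.05. Fold changes on this scale understate the change of low genes. The plan named limma for normalized values. Ratios used exact permutation tests (SciPy 1.17.1). Alternatives were TMM scaling, edgeR 4.0.16, DESeq2 1.42.0, a replicate block, an adjusted p of 0.1 and leaving out each library, besides pseudocounts of 0.5 and 5 and a filter at 50 or none. The fit was tested on simulated data, in which every planted change was larger than any of the enzyme differences. That test cannot tell how well differences as small as theirs are recovered. Replicates are separate mice. The enzymes and lists were chosen with earlier results of these data known. Every enzyme was named; linked genes were named if called by limma or DESeq2, otherwise the 3 of smallest p per list, plus a fixed set, of which 2 genes are not reported here.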

Additional observations from a re-analysis of the deposited data

How the results depend on the processing

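No enzyme was called under any alternative run: the lowest adjusted p was 0.219 with all libraries and 0.199 with a library left out. With all libraries kept, none of 72 enzyme values changed direction, whereas 9 of 54 did with a library left out. Leaving out 1 library put Idh1 at -0.14 to 0.15, Idh2 at -0.080 to 0.039, Sucla2 at -0.068 to 0.12, the Idh1 to Idh2 log2 ratio at -0.18 to 0.13 and that of Pcx to Cs at -0.027 to 0.29. It put Pdha1 at -0.028 to 0.023, Glud1 at -0.052 to 0.043, Me1 at -0.013 to 0.054, Pck2 at -0.011 to 0.15, Sdhaf1 at -0.22 to 0.047 and Sdhaf2 at -0.11 to 0.0011. Pdha1 also stood at 0.0026 with TMM scaling and 0.0027 with edgeR. Limma's 5 calls over all genes became 136 with no filter, 9 at an adjusted p of 0.1, 487 with DESeq2 and 0 with edgeR (2554 unadjusted). They ranged from 0 to 26 when 1 library was left out: 0 without PEG-glutaminase 1, vehicle 1 or vehicle 2 (1936, 2366 and 1683 unadjusted), 26 without PEG-glutaminase 3 and 20 when PEG-glutaminase 2 was left out. Calls over the linked lists were 3 with DESeq2. The cause of these changes was not tested, and leaving out a library leaves 2 in its group.

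With the replicate number as a block limma called 1 gene over the whole table and no enzyme. The sample titles do not say whether the numbers pair the mice. Deviations from the group mean of same-numbered libraries correlated at -0.13, -0.21 and -0.22 across genes. Each PEG-glutaminase library correlated best with a vehicle library of another number. Deviations within a group sum to 0, so these correlations are tied to each other and cannot settle whether the mice were paired.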

Other observations

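Idh3a and Idh3b encode subunits of the same mitochondrial enzyme, and their ratio was chosen for description after its values were seen. Idh3a reached 0.749, 0.915 and 0.73 of the Idh3b normalized counts in PEG-glutaminase tumours 1 to 3, against 0.597, 0.569 and 0.646 in vehicle tumours 1 to 3. Idh3a was higher and Idh3b lower in each PEG-glutaminase tumour than in each vehicle tumour, so the ratio had to separate the groups. The log2 ratio differed by 0.40 between PEG-glutaminase and vehicle tumours, which restates the differences of the single genes. The third subunit gene, Idh3g, had 2369, 2167 and 2296 normalized counts in PEG-glutaminase tumours 1 to 3 and 2179, 2539 and 2279 in vehicle tumours 1 to 3, with overlapping ranges. No test was made of this ratio.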
